A study of Homo sapiens with 9 samples.

Results

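The cytosolic ribosome is built from ribosomal RNA and a set of ribosomal proteins, each of which is encoded by a gene of its own and named RPL for the large subunit or RPS for the small subunit. Apart from the proteins of the P stalk, each is present in a single copy per ribosome, and their mRNAs are among the most abundant of a growing cell. Most of these mRNAs start with a C followed by a run of pyrimidines, the terminal oligopyrimidine (TOP) motif, through which the mTOR kinase and the RNA-binding protein LARP1 control their translation and stability. The ribosomal protein genes were read here in RNA-seq libraries of OVCAR4 cells, an established human cell line from an ovarian serous adenocarcinoma, after knockdown of MPZL3, an immunoglobulin domain transmembrane protein.

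Members were the protein-coding genes of the count table whose name is RPL or RPS followed by a number or by P0 to P2, with the paralogue names ending in A, X or L and a number. This gave 83 of 58735 genes, 52 of the large and 31 of the small subunit. Of these, 81 passed the filter on low counts, 50 of the large and 31 of the small subunit. RPL10L, a retrogene copy of RPL10 known from testis, had 0 counts in all 9 libraries, where a count of 0 allows up to 3 counts, and RPL3L, the muscle paralogue of RPL3, had 40 counts over all libraries. RPSA, which is also a small subunit protein, is not matched by the name pattern and is given apart.

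The 9 libraries were 3 of OVCAR4 cells transduced with a scrambled shRNA vector (scr control), 3 with shMPZL3 #1 and 3 with shMPZL3 #2. All cells, controls included, carried an shRNA vector and were selected with puromycin, and each group was a transduced population of 1 cell line. Total counts ranged from 15040102 to 27835841 per library, and no 2 replicates of a group agreed within sampling noise. The replicates are called biological in the methods, but their cultures are not described, and p-values measure only the spread between these libraries. MPZL3 counts were 403, 648 and 427 in the scr control libraries, 130, 144 and 130 in those of shMPZL3 #1 and 281, 375 and 361 in those of shMPZL3 #2. MPZL3 fell by 2.17 ± 0.16 (SE) on the log2 scale with shMPZL3 #1 and by 0.89 ± 0.15 with shMPZL3 #2 (edgeR adjusted p = 3.73e-07 and 0.000562). Of the 8 epithelial and serous carcinoma markers, 7 (PAX8, EPCAM, KRT7, KRT8, KRT18, MUC16 and CDH1) were expressed in every library, while WT1 had 3 to 13 counts. Of the 5 fibroblast markers DCN was at 0 in all libraries and COL3A1 had at most 12 counts, but the summed level of the list, mostly COL1A1 and LUM, was 15.9 to 20.2 CPM (counts scaled to a library total of 1e6) in scr control, 35.7 to 51.3 with shMPZL3 #1 and 30.6 to 33.4 with shMPZL3 #2, and the part of this shift in the results below was not tested. The summed level of the 3 endothelial markers was 8.09 to 9.87 CPM in scr control, 7.31 to 8.80 for shMPZL3 #1 and 12.4 to 16.1 for shMPZL3 #2, above all controls, with PECAM1 at 3 to 18 counts, and its part was not tested either. The 3 leukocyte markers summed to 0.178 to 1.33 CPM over all libraries, with the groups overlapping.

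The region around the annotated start of transcription is shown for 8 members. They were chosen to set genes with and without the TOP motif near that annotated start beside how far their mRNA moved. Each sequence holds 10 bases before the start and the first 15 bases of the transcript (RefSeq, GRCh38.p14), and capitals mark the motif, here a C followed by at least 4 pyrimidines that begins within 5 bases of the start.
RPS3A, chr4:151099618-151099642, plus strand: cccacttccgCCCTTTTggctctct
RPL22, chr1:6199581-6199605, minus strand: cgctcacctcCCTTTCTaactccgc
RPLP0, chr12:120201097-120201121, minus strand: ggcgcgaggcCCTTCTCTCgccagg
RPS27, chr1:153990752-153990776, plus strand: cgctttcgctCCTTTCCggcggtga
RPS15, chr19:1438386-1438410, plus strand: aggcgcggaccaaagcgatctcttc
RPS27A, chr2:55231893-55231917, plus strand: agtgacacacaagacccagactctt
RPL26L1, chr5:172958719-172958743, plus strand: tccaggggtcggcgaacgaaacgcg
RPS27L, chr15:63157463-63157487, minus strand: gatgccgagcgcagatcgcttgcag
RPS3A and RPL22, which carry the motif at the first base of the transcript, were among the members that fell most with both shRNAs. RPLP0 and RPS27 carry it as well and were not called with either shRNA. RPS15, RPS27A and RPL26L1 have no such motif that begins within 5 bases of the start and fell with shMPZL3 #1. RPL26L1 was also called lower with shMPZL3 #2. RPS27L, which has no motif there either, was not called with either shRNA. In RPS15 and RPS27A a C followed by at least 4 pyrimidines begins later in the bases shown. Their place among genes without the motif thus rests on the annotated start and the window.

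Ribosomal protein genes took a smaller share of the counts in every knockdown library than in any scr control library. The share was 4.25%, 3.90% and 3.94% in scr control, 3.26%, 2.58% and 2.64% for shMPZL3 #1 and 3.64%, 3.39% and 3.62% for shMPZL3 #2, so the 3 groups did not overlap. In the same order, the group means were 4.03% ± 0.195, 2.83% ± 0.374 and 3.55% ± 0.14 (SD, n = 3). Replicate 1 of shMPZL3 #1 stood apart from the other two of its group, nearer to shMPZL3 #2. As CPM are shares of a library, fewer cells with these mRNAs and less of them per cell cannot be told apart in bulk RNA, and the amount of RNA per cell was not measured.

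**Figure D1:**
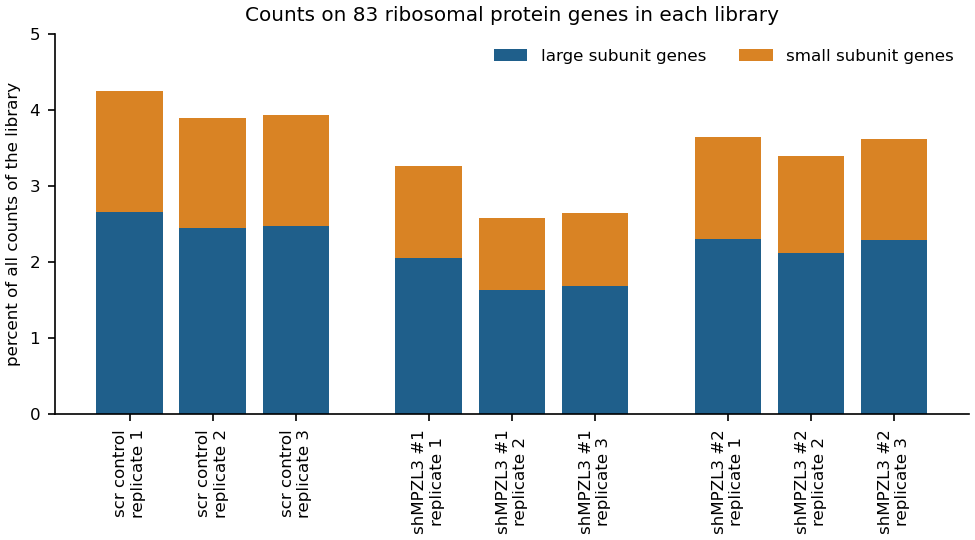
Percent of all counts of each library (y axis) on the 83 ribosomal protein genes, stacked as large subunit genes (lower bar) and small subunit genes (upper bar), for the 9 libraries. The shMPZL3 #1 libraries reach 2.58% to 3.26%, the shMPZL3 #2 libraries 3.39% to 3.64% and the scr control libraries 3.90% to 4.25%.

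Large and small subunit genes moved together. Large subunit genes held 2.53% ± 0.114 of the counts in scr control, 1.79% ± 0.229 for shMPZL3 #1 and 2.24% ± 0.0987 for shMPZL3 #2, while small subunit genes held 1.5% ± 0.0818, 1.03% ± 0.146 and 1.31% ± 0.0413 (SD, n = 3). The ratio of large to small subunit counts was 1.67, 1.70 and 1.68 in the scr control libraries, 1.71, 1.73 and 1.76 with shMPZL3 #1 and 1.73, 1.68 and 1.71 with shMPZL3 #2. The shMPZL3 #1 libraries all lay above the scr control libraries in this ratio, but only just. The lowest of them was at 1.707 and the highest scr control library at 1.703, with SDs within these groups of 0.0265 and 0.0183. The shMPZL3 #2 libraries overlapped scr control. Against the mean of scr control, the median large subunit gene of the shMPZL3 #1 libraries was at -0.29, -0.70 and -0.64 on the log2 scale and the median small subunit gene at -0.26, -0.71 and -0.72. For shMPZL3 #2 these medians were -0.17, -0.23 and -0.14 for the large and -0.15, -0.24 and -0.14 for the small subunit. The difference between the subunits was thus smaller than that between libraries of 1 group.

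With shMPZL3 #1, ribosomal protein mRNAs fell almost as a body. Of the 81 members tested, 68 were lower than in scr control and 0 higher at an adjusted p under 0.05, against 15.3% of all 16928 genes tested that were lower and 16.8% that were higher (edgeR quasi-likelihood test, Benjamini-Hochberg over all genes tested); at an unadjusted p under 0.05 the number higher was also 0, and DESeq2 gave 70 lower and 0 higher. The median log2 fold change was -0.53, a fall of 30.9%, where the median of all genes tested was 0.01. By subunit, 42 of 50 large and 26 of 31 small subunit genes were lower, with medians of -0.52 and -0.54. All 3 libraries lay below all 3 scr control libraries for 71 members, against 22.8% of all genes tested. The spread within this group was also wider than in the others, with a median SD over the members of 0.24 on the log2 scale, against 0.09 in scr control and 0.10 with shMPZL3 #2. Without replicate 1 of shMPZL3 #1 the number lower was 73, and without any other single library it was 58 to 69.

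With shMPZL3 #2 the shift had the same direction and was smaller. Of the 81 members, 9 (11.1%) were lower and 0 higher, against 11.4% lower among other abundant genes and 5.80% of all genes tested that were lower and 9.36% that were higher. Further, 23 were lower and 0 higher at an unadjusted p under 0.05, against 2229 and 2737 of the 16928 genes tested. DESeq2 gave 11 lower and 0 higher, against 7.38% and 10.2% of all genes tested. The median log2 fold change was -0.16, a fall of 10.8%, against 0.00 over all genes tested, and 71 of 81 values were negative. The calls were 7 of 50 large and 2 of 31 small subunit genes, with medians of -0.16 and -0.17. All 3 libraries lay below all 3 scr control libraries for 47 members, against 17.6% of all genes tested. The number of members lower was 0 without scr control replicate 1, 4 without scr control replicate 2, 3 without shMPZL3 #2 replicate 1, 1 without shMPZL3 #2 replicate 3 and 14 without shMPZL3 #1 replicate 1. In the same fits the share of all genes that were lower was 2.77%, 2.86%, 3.46%, 2.02% and 5.51%.

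**Figure D2:**
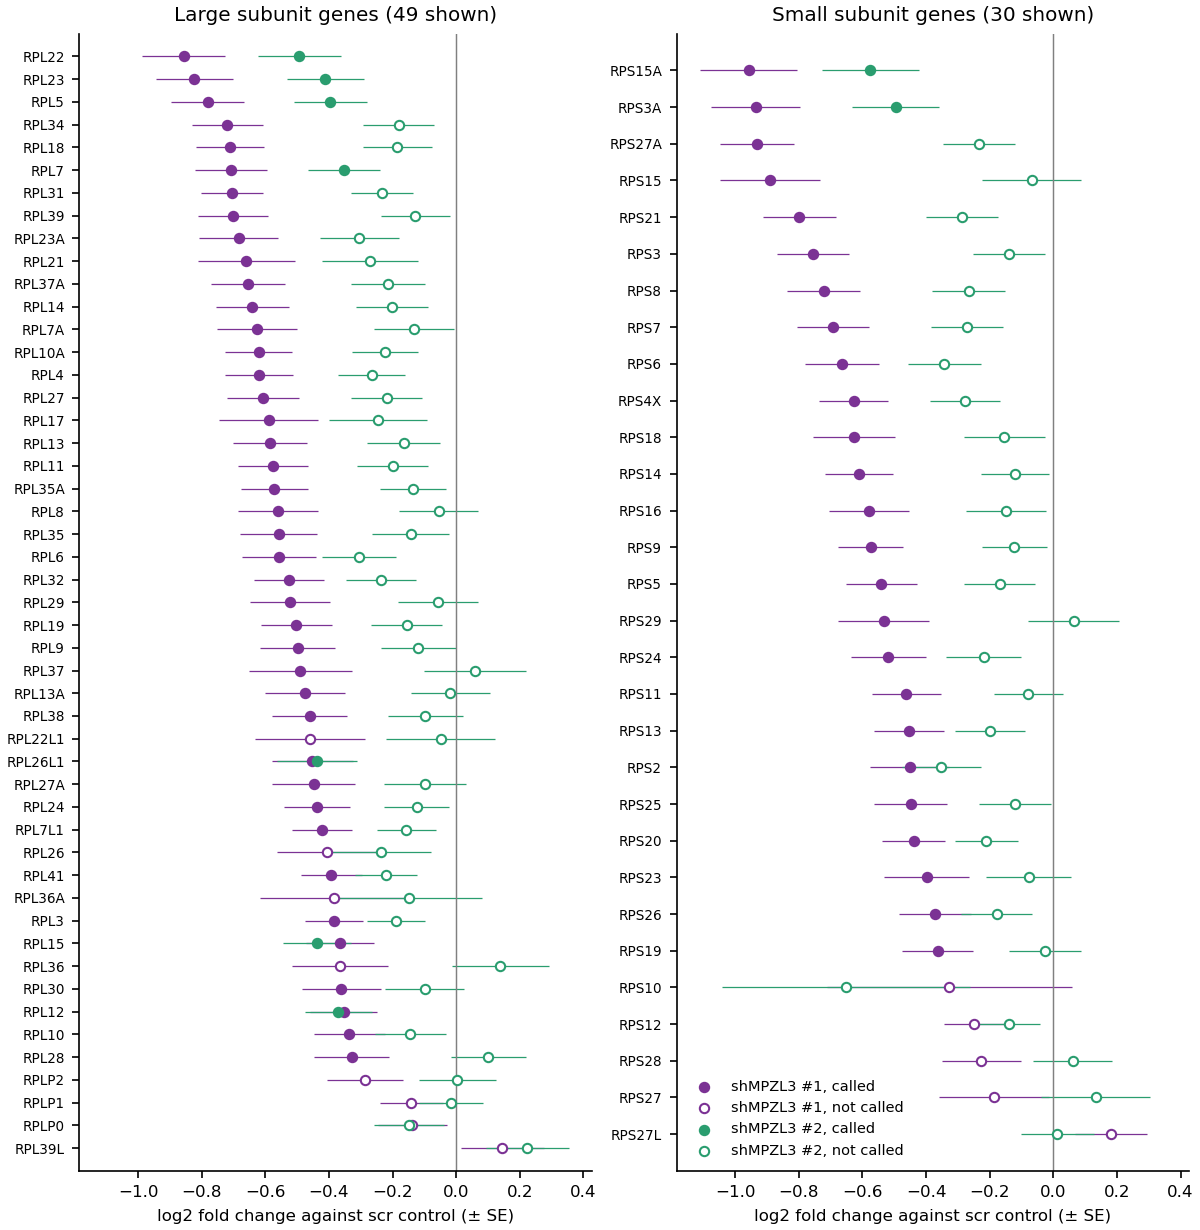
Log2 fold change against scr control (x axis, with SE) of 49 large and 30 small subunit genes, sorted by shMPZL3 #1; purple is shMPZL3 #1, green is shMPZL3 #2 and filled points passed an adjusted p under 0.05. With shMPZL3 #1 66 points are filled and run down to -0.96, with shMPZL3 #2 9 are filled, and RPL39L and RPS27L lie to the right of 0 with both.

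The shRNAs also differed from each other. Of the 81 members, 44 were higher with shMPZL3 #2 than with shMPZL3 #1 and 0 were lower, against 7.56% of all genes tested in each direction. The number lower at an unadjusted p under 0.05 was 0 as well, against 2416 of the 16928 genes tested. DESeq2 gave 47 higher and 0 lower, against 8.77% and 8.91% of all genes tested. The median difference was 0.38 on the log2 scale, and 0.38 for large and 0.37 for small subunit genes, with 29 of 50 and 15 of 31 called. All 3 shMPZL3 #2 libraries lay above all 3 shMPZL3 #1 libraries for 44 members, against 15.4% of all genes tested. The number called fell to 21 without shMPZL3 #1 replicate 2, 15 without shMPZL3 #1 replicate 3 and 14 without either replicate 1 or replicate 3 of shMPZL3 #2. The share of all genes that were higher was 5.21%, 4.51%, 4.21% and 3.81% in these fits. MPZL3 itself was higher with shMPZL3 #2 than with shMPZL3 #1 by 1.28 ± 0.16 (SE) on the log2 scale (edgeR adjusted p = 5.72e-05).

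With both shRNAs taken as 1 knockdown condition, 19 of the 81 members were lower and 0 higher. Of all genes tested, 6.40% were lower and 9.36% higher. At an unadjusted p under 0.05, 52 members were lower and 0 higher, against 2389 and 2957 of the 16928 genes tested. DESeq2 gave 29 members lower and 0 higher, against 8.85% and 12.1% of all genes tested. The median log2 fold change was -0.35, against 0.02 over all genes tested, with 11 of 50 large and 8 of 31 small subunit genes called. All 6 knockdown libraries lay below all 3 scr control libraries for 46 members, against 11.0% of all genes tested. In this fit the gap between the shRNAs is part of the spread: where the mean of the shRNAs was tested with each shRNA as its own group, 58 members were lower, against 13.0% of all genes. The 19 became 0 without scr control replicate 1, 3 without scr control replicate 2, 5 without scr control replicate 3 and 12 without replicate 1 or without replicate 2 of shMPZL3 #1. The share of all genes that were lower was 0.978%, 1.58%, 2.40%, 3.72% and 5.82% in these fits.

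The members were also set beside the 4556 other genes at least as abundant as the member at the 10th percentile. With shMPZL3 #1, 27.9% of these genes were lower and 18.4% higher, at a median of -0.07 on the log2 scale, against 84% and 0% of the members, at a median of -0.53. With shMPZL3 #2, 11.4% were lower and 11.1% higher, at a median of -0.04, so that the members' share of lower calls, 11.1%, was near that of these genes, while 0% of the members were higher and their median was -0.16. Scaling the libraries without the ribosomal protein genes left the numbers of members called at 68, 9, 44 and 19.

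**Figure D3:**
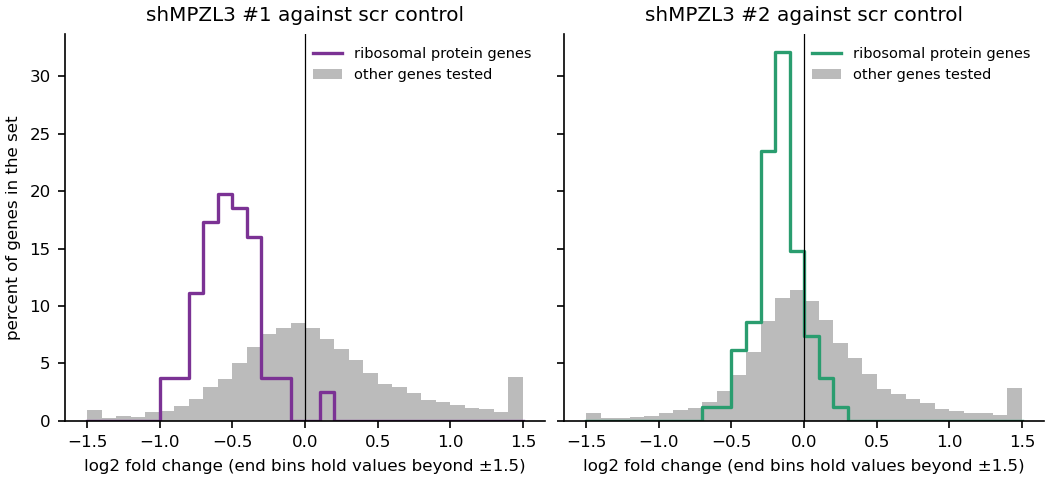
Share of genes (y axis, percent of the set) in bins of 0.1 in log2 fold change against scr control (x axis) for the 81 ribosomal protein genes tested (line) and all other genes tested (grey bars), for each shRNA. The line peaks between -0.6 and -0.5 with shMPZL3 #1 and between -0.2 and -0.1 with shMPZL3 #2, while the grey bars peak next to 0.

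RPS15A and RPS3A had the largest called falls of the grouped comparison. RPS15A (ENSG00000134419, hg38 chr16:18781295-18790383, minus strand), a small subunit protein whose gene is mutated in some patients with Diamond-Blackfan anaemia, an inherited failure of red cell production, had 184, 152 and 162 CPM in scr control, 88.0, 100.1 and 67.8 for shMPZL3 #1 and 97.5, 141 and 95.9 for shMPZL3 #2. RPS3A, a core protein of the small subunit, had 495, 443 and 416 CPM in scr control, 265, 259 and 183 for shMPZL3 #1 and 281, 377 and 302 for shMPZL3 #2. In both genes every knockdown library lay below every scr control library, and replicate 2 of shMPZL3 #2 was the one nearest to control. RPS15A fell by 0.96 ± 0.15 (SE) with shMPZL3 #1 and by 0.58 ± 0.15 with shMPZL3 #2 on the log2 scale (edgeR adjusted p = 0.0002 and 0.0167), and RPS3A fell by 0.94 ± 0.14 and 0.50 ± 0.14 (edgeR adjusted p = 0.000113 and 0.022).

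On the large subunit the largest called fall was that of RPL22 (ENSG00000116251, hg38 chr1:6185020-6209389, minus strand), an RNA-binding protein of the subunit surface. It had 139.5, 125 and 137 CPM in scr control, 69.4, 91.2 and 60.8 for shMPZL3 #1 and 91.0, 107 and 87.2 for shMPZL3 #2, with no overlap between knockdown and control. It fell by 0.86 ± 0.13 and 0.49 ± 0.13 (SE) on the log2 scale (edgeR adjusted p = 0.000139 and 0.0163). RPL23, which lies near the interface of the subunits and is known to bind MDM2 when it is free, fell by 0.82 ± 0.12 with shMPZL3 #1 and 0.41 ± 0.12 with shMPZL3 #2 (edgeR adjusted p = 0.000104 and 0.0285). In a two-sided exact permutation test of 6 against 3 libraries, whose smallest p is 0.0119, RPS15A, RPS3A and RPL22 each had p = 0.0119, and RPL23 had p = 0.0238. These p-values are not adjusted. The genes were named for their falls in the same libraries, so the permutation test adds no separate evidence.

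RPL5 and RPL11 join 5S ribosomal RNA in the 5S RNP, which docks on the large subunit and, when unassembled, binds MDM2. RPL5 had 1092, 974 and 947 CPM in scr control, 649, 622 and 482 for shMPZL3 #1 and 719.7, 833 and 737 for shMPZL3 #2. It fell by 0.78 ± 0.12 (SE) with shMPZL3 #1 and by 0.40 ± 0.11 with shMPZL3 #2 (log2 scale, edgeR adjusted p = 0.000109 and 0.0274). RPL11 fell by 0.58 ± 0.11 with shMPZL3 #1 (edgeR adjusted p = 0.000878) and was at -0.20 ± 0.11 with shMPZL3 #2, where the groups overlapped (edgeR adjusted p = 0.245).

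Of the 9 members called with both shRNAs, RPL15, RPL12 and RPL26L1 had the smallest differences between them. RPL15, a core protein of the large subunit, had 819, 722 and 721 CPM in scr control, 683, 549 and 523 for shMPZL3 #1 and 562, 541 and 568 for shMPZL3 #2. RPL12, which anchors the base of the P stalk, had 571, 557 and 608 CPM in scr control, 525, 425 and 408 for shMPZL3 #1 and 472, 424 and 446 for shMPZL3 #2. For both genes the shMPZL3 #2 libraries lay within the range of shMPZL3 #1, and all knockdown libraries lay below scr control. The difference between the shRNAs was -0.07 ± 0.11 (SE) for RPL15, -0.02 ± 0.10 for RPL12 and 0.02 ± 0.13 for RPL26L1 on the log2 scale (edgeR adjusted p = 0.714, 0.937 and 0.955). RPL7, of the large subunit, was also called with both and fell by 0.71 ± 0.11 and 0.35 ± 0.11 (edgeR adjusted p = 0.000202 and 0.0444).

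RPS15 and RPS27A had the largest differences between the shRNAs, with calls for shMPZL3 #1 and none for shMPZL3 #2. RPS15, which lies at the decoding site, had 230, 202 and 202 CPM in scr control, 157, 89.7 and 94.8 for shMPZL3 #1 and 202, 197 and 205 for shMPZL3 #2. RPS27A, made as a fusion with ubiquitin that is then cleaved, had 459, 418 and 430 CPM in scr control, 265, 233 and 187 for shMPZL3 #1 and 348, 396 and 368 for shMPZL3 #2. For RPS15 the shMPZL3 #2 libraries overlapped scr control, while for RPS27A they lay between the other groups without overlap. The difference of shMPZL3 #2 minus shMPZL3 #1 was 0.82 ± 0.16 (SE) for RPS15 and 0.70 ± 0.12 for RPS27A on the log2 scale (edgeR adjusted p = 0.00212 and 0.000672). RPS3, at the mRNA entry channel, and RPS29, a small zinc-binding protein, were at 0.62 ± 0.11 and 0.60 ± 0.14 (edgeR adjusted p = 0.00163 and 0.00991).

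In the P stalk, the flexible arm of the large subunit that recruits the elongation factors, 1 of 4 members was lower with each shRNA. With shMPZL3 #1 and shMPZL3 #2, 84% and 11.1% of all members were lower. The same shares were 15.3% and 5.80% of all genes tested and 27.9% and 11.4% of the other abundant genes. RPLP0, the base of the stalk, had 835, 807 and 834 CPM in scr control, 889, 678 and 683 for shMPZL3 #1 and 738, 695 and 802 for shMPZL3 #2. RPLP1 had 548, 549.7 and 554 CPM in scr control, 553, 449 and 495 for shMPZL3 #1 and 579, 498 and 555 for shMPZL3 #2. For both genes the shMPZL3 #1 libraries overlapped scr control, with replicate 1 above all controls for RPLP0 and within their range for RPLP1. The shMPZL3 #2 libraries lay below all controls for RPLP0 and overlapped them for RPLP1. With shMPZL3 #1 the log2 fold changes of RPLP0, RPLP1 and RPLP2 were -0.14 ± 0.11, -0.14 ± 0.10 and -0.29 ± 0.12 (SE; edgeR adjusted p = 0.366, 0.303 and 0.0793), and none of the 3 was called in any of the 4 comparisons, while RPL12, the fourth of the group, was called with each shRNA.

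The other groups of members by place in the ribosome also held calls with shMPZL3 #1. So did most members, 84% of which were lower, against 15.3% of all genes tested. All 3 members near the peptidyl transferase centre, RPL3, RPL8 and RPL10, were lower, with fold changes from -0.56 to -0.34 on the log2 scale, and 0 of them with shMPZL3 #2. Of 8 members that line the exit tunnel or its mouth 7 were lower with shMPZL3 #1, with a median of -0.60, and 0 with shMPZL3 #2, with a median of -0.24; the eighth, RPL26, was at -0.41 ± 0.16 (SE; edgeR adjusted p = 0.059). Both members of the mRNA entry channel and both of the decoding site were lower with shMPZL3 #1, and 2 of 3 at the mRNA exit, where RPS28 was at -0.23 ± 0.12 (edgeR adjusted p = 0.182). RPS6, the classical substrate of S6 kinase, fell by 0.66 ± 0.12 with shMPZL3 #1 (edgeR adjusted p = 0.00043) and was at -0.34 ± 0.12 with shMPZL3 #2 (edgeR adjusted p = 0.0558). Of 18 members mutated in Diamond-Blackfan anaemia 14 were lower with shMPZL3 #1 and 3 with shMPZL3 #2, namely RPS15A, RPL5 and RPL15, where 84% and 11.1% of all members were lower. RPSA, the laminin receptor precursor, which the name pattern leaves out and which was added after its values were seen, fell by 0.44 ± 0.10 with shMPZL3 #1 (edgeR adjusted p = 0.0037) and was at -0.30 ± 0.10 with shMPZL3 #2 (edgeR adjusted p = 0.0564).

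Some members have a paralogue that can stand in their place in the ribosome, and the pairs did not all move alike. RPL39, a small protein of the exit tunnel, had 281, 243 and 281 CPM in scr control, 185, 161 and 148 for shMPZL3 #1 and 227, 270.4 and 238 for shMPZL3 #2, and fell by 0.70 ± 0.11 (SE) with shMPZL3 #1 (edgeR adjusted p = 0.000164). Its paralogue RPL39L, best known from testis and tumours, had 19.8, 21.6 and 22.4 CPM in scr control, 27.6, 20.2 and 22.8 for shMPZL3 #1 and 25.3, 24.6 and 24.7 for shMPZL3 #2. RPL39L was not called (0.14 ± 0.13 and 0.22 ± 0.13 on the log2 scale, edgeR adjusted p = 0.429 and 0.27). The counts of RPL39L were 7.98% ± 0.919 of those of RPL39 in the controls, 14.3% ± 1.52 for shMPZL3 #1 and 10.2% ± 1.05 for shMPZL3 #2 (SD, n = 3), with every knockdown library above every scr control library. These are ratios of counts, not of levels per length.

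RPL22L1, the paralogue of RPL22, had 10.9% ± 1.63 of the counts of RPL22 in scr control, 14.5% ± 1.33 with shMPZL3 #1, without overlap, and 14.7% ± 2.3 with shMPZL3 #2, where 1 library overlapped scr control (SD, n = 3). RPL7L1, which acts in the nucleolus on pre-ribosomes, was at 23.3% ± 1.38 of RPL7 in scr control, 28.6% ± 2.58 for shMPZL3 #1 and 26.6% ± 1.45 for shMPZL3 #2, without overlap with control. RPL26L1 had more counts than RPL26 itself, 380% ± 65.7 in scr control and 370% ± 65.8 and 336% ± 69.2 in the knockdown groups, which overlapped. RPL26 had only 2219 counts over all libraries. The counts on its pseudogenes were 36.77% of its own, and it shares 14.3% of its exonic bases with another gene. The part of shared reads in this ratio was not tested. RPS27, a zinc finger protein of the small subunit, varied widely with shMPZL3 #1, at 621, 320.4 and 472 CPM against 582, 464 and 563 in scr control, and RPS27L, a p53 target, had 49.2, 54.8 and 52.4 CPM against 45.7, 45.8 and 46.4. Neither RPS27 nor RPS27L was called with either shRNA, and their ratio overlapped between all groups.

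**Figure D4:**
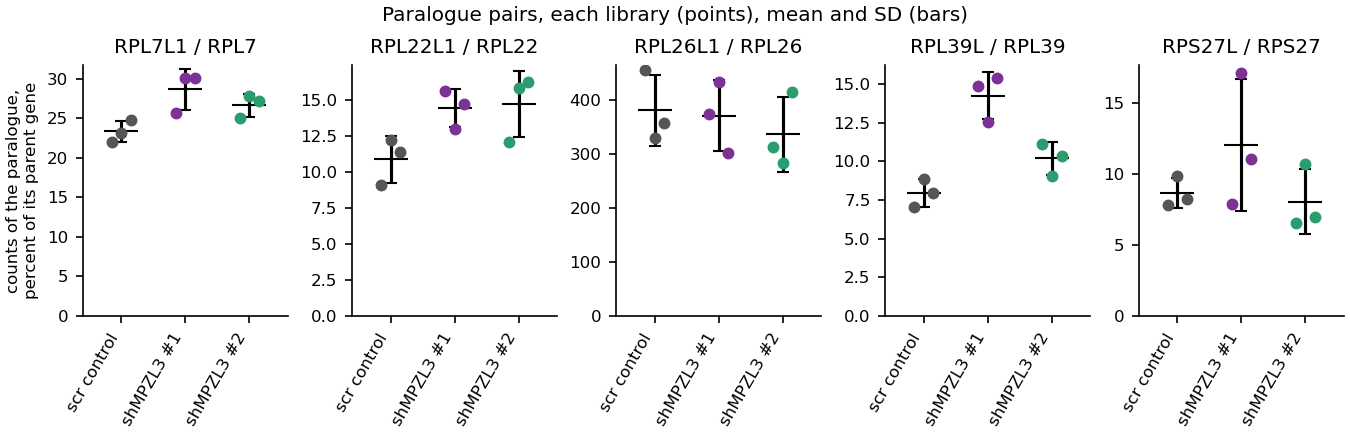
Counts of a paralogue as a percent of the counts of its parent gene (y axis, from 0) in each library (points), with the mean and SD of each group (black bars, n = 3), for 5 pairs. RPL39L against RPL39 is at 7.98% in scr control and 14.3% with shMPZL3 #1, RPL7L1 and RPL22L1 shift less, and RPL26L1 and RPS27L overlap between groups.

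The members differed widely in level. Per length of the table's gene models, in TPM (counts per length scaled to a total of 1e6) over all 9 libraries, the highest were RPL8 at 2593, RPL41 at 2246, RPL13A at 1828, RPS27 at 1648 and RPS2 at 1486. The lowest were RPL10L at 0, RPL3L at 0.24, RPS10 at 2.11 and RPL36A at 4.02. RPS10 shares 39.4% of its exonic bases with the readthrough gene RPS10-NUDT3, and the counts on its pseudogenes were 559.6% of its own; the part of shared reads in its low level was not tested. Of the 83 members 76 have annotated pseudogenes, 1070 in all, and 50 share at least 1 exonic base with another gene, so that their levels are uncertain. For RPL10, which shares 55.5% of its bases, the main partner DNASE1L1 on the opposite strand had 3480 counts over all libraries against 152311. Of 85 ribosomal protein pseudogenes tested, shMPZL3 #1 gave 22 (25.9%) lower and 3 (3.53%) higher, where all genes tested stood at 15.3% and 16.8%. For shMPZL3 #2 the counts were 5 (5.88%) lower and 2 (2.35%) higher. The share lower was thus near the 5.80% of all genes tested, of which 9.36% were higher. On the log2 scale the pseudogenes' medians were -0.31 and -0.07, in the same order. The pseudogenes' reads cannot be told apart from those of their parents.

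Level, length and base composition were set against the size of the shift across the 81 members, which share their libraries. Spearman's rho with the log2 fold change of shMPZL3 #1 was -0.04 for level, -0.03 for mRNA length, 0.22 for the GC content of the mRNA and -0.23 for the number of pseudogenes. With shMPZL3 #2 it was -0.01, -0.21, 0.33 and -0.40. Genes are not independent replicates, and these are descriptions.

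The start site of 66 members was listed in the RefSeq promoter table, and for each gene only the first listed start was used. Of the 66, 50 (75.8%) had the motif within 5 bases of the start, against 22.3% of 11281 genes tested and 21.1% of all 27305 genes of the table. At the start base itself it stood in 42 members (63.6%), against 5.17% of genes tested. The share was alike in large (76.2%) and small (75%) subunit genes. Among the members, those with and without the motif had like medians with shMPZL3 #1, -0.52 with 39 of 50 lower and -0.53 with 14 of 15 lower. Outside the members, 25.9% of 541 genes tested with the motif at the start base were lower with shMPZL3 #1 at a median of -0.08, against 16.7% of 10675 without it at a median of 0.01. Among the other genes above the member at the 10th percentile these shares were 44.6% of 195, at a median of -0.24, and 26.9% of 2886, at a median of -0.06; the median levels of these sets were 6.82 and 6.79 on the log2 CPM scale, below the 8.51 of the members with the motif. With shMPZL3 #2 the shares with and without the motif were 6.47% and 6.51% over the other genes tested, and 11.3% in both sets of abundant genes. A match describes the annotated start base in this table, not the start used in these cells.

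Genes that act with the ribosomal proteins were followed in lists, to be read against 15.3% of all genes tested that were lower with shMPZL3 #1 and 5.80% with shMPZL3 #2, and against 27.9% and 11.4% of the abundant genes above. Of 4 ribosome components outside the name pattern, among them RACK1 and FAU, all 4 were lower with shMPZL3 #1 and 0 with shMPZL3 #2. RACK1, a scaffold on the head of the small subunit, had 1629 ± 140.3 CPM in scr control and 1090 ± 152 with shMPZL3 #1 and fell by 0.58 ± 0.11 (SE) on the log2 scale (edgeR adjusted p = 0.000724). Of 14 translation genes of the TOP class 12 were lower with shMPZL3 #1, with a median of -0.55, and 2 with shMPZL3 #2, with a median of -0.23. EIF4B, a cofactor of the helicase that opens mRNA leaders, fell by 0.85 ± 0.11 with shMPZL3 #1 (edgeR adjusted p = 3.22e-05), and EEF1A1, which brings aminoacyl-tRNA to the ribosome, by 0.55 ± 0.10 (edgeR adjusted p = 0.00061). PABPC1, the poly-A binding protein, was at -0.06 ± 0.09 and was not called (edgeR adjusted p = 0.633). EEF1G is listed at 0 in all libraries.

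Among 13 genes that host small nucleolar RNAs, the guides of ribosomal RNA modification, 9 were lower with shMPZL3 #1 and 1 with shMPZL3 #2, with medians of -0.43 and 0.06. SNHG5 was at 43.1 ± 2.83 CPM in the controls, 24.4 ± 2.83 for shMPZL3 #1 and 47.7 ± 0.808 for shMPZL3 #2 (SD, n = 3), and differed between the shRNAs by 0.96 ± 0.11 (SE) on the log2 scale (edgeR adjusted p = 3.37e-05). GAS5, which is itself a TOP RNA, fell by 0.66 ± 0.12 with shMPZL3 #1 and was at -0.10 ± 0.12 with shMPZL3 #2 (edgeR adjusted p = 0.000588 and 0.607).

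Among ribosome assembly factors, 76.7% of those of the small and 61.3% of those of the large subunit were lower with shMPZL3 #1, against 15.3% of all genes tested, and 16.7% and 16.1% with shMPZL3 #2, against 5.80%. Of 30 factors of the small subunit 23 were lower with shMPZL3 #1 and 5 with shMPZL3 #2, with medians of -0.44 and -0.24, and of 31 factors of the large subunit 19 and 5, with medians of -0.46 and -0.20. None of these 61 was higher with either shRNA, against 16.8% and 9.36% of all genes tested (edgeR). At an unadjusted p under 0.05 the count higher was 0 with shMPZL3 #1 and 1 with shMPZL3 #2. Of the 16928 genes tested it was 3719 and 2737. DDX18, a nucleolar helicase of the large subunit pathway, fell by 1.13 ± 0.12 (SE) and 0.37 ± 0.12 on the log2 scale (edgeR adjusted p = 8.98e-06 and 0.043). LTV1, a late factor of the small subunit that binds near RPS3, fell by 0.92 ± 0.17 and 0.58 ± 0.17 (edgeR adjusted p = 0.000687 and 0.0279). HEATR1, an early factor of the small subunit, fell alike with both, by 0.42 ± 0.10 and 0.46 ± 0.10 (edgeR adjusted p = 0.00325 and 0.00415). Of 14 genes of RNA polymerase I and its factors, which transcribe ribosomal RNA, 8 and 3 were lower, among them RRN3, the factor that links the polymerase to its promoter, by 0.73 ± 0.10 and 0.32 ± 0.10 (edgeR adjusted p = 8.01e-05 and 0.0433). Of 6 dedicated chaperones of ribosomal proteins 4 and 0 were lower. Of 7 genes of ribosome rescue 2 (28.6%) and 1 (14.3%) were lower, near the shares of 27.9% and 11.4% among abundant genes, with ABCE1, the ribosome recycling ATPase, falling by 0.66 ± 0.13 and 0.62 ± 0.13 (edgeR adjusted p = 0.000826 and 0.00288).

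**Figure D5:**
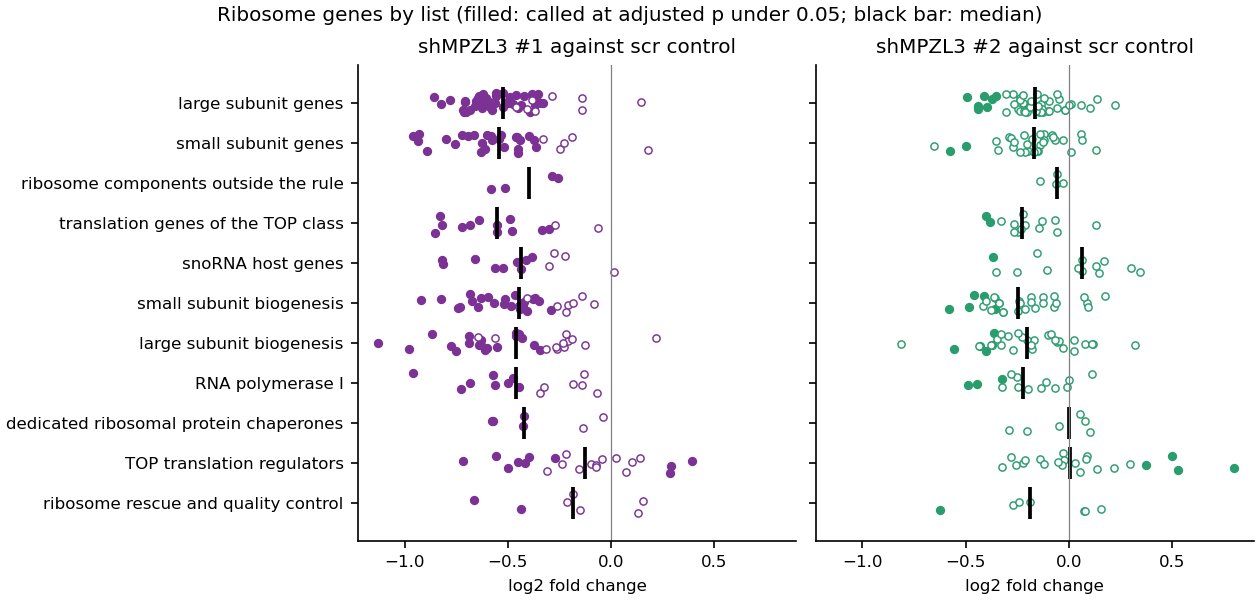
Log2 fold change against scr control (x axis) of each tested gene of the member sets and of 9 lists of ribosome genes (rows; points are genes, spread vertically for visibility; filled points passed an adjusted p under 0.05; black bars are medians), for each shRNA. With shMPZL3 #1 all medians lie left of 0, from -0.55 for translation genes of the TOP class to -0.13 for TOP translation regulators, and with shMPZL3 #2 they lie between -0.24 and 0.06.

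Regulators of TOP mRNAs moved in both directions. Of 22 genes, 7 (31.8%) were lower and 3 (13.6%) higher with shMPZL3 #1. The same shares were 15.3% and 16.8% over all genes tested and 27.9% and 18.4% among the abundant genes. With shMPZL3 #2, 0 were lower and 4 (18.2%) higher. All genes tested stood at 5.80% and 9.36% there, and the abundant genes at 11.4% and 11.1%. LARP1 itself was at 0.02 ± 0.10 (SE) and 0.14 ± 0.10 on the log2 scale and was not called (edgeR adjusted p = 0.886 and 0.373). MYC, a transcription factor that drives ribosomal protein and assembly factor genes, was called in opposite directions, at 65.7 ± 4.69 CPM in the controls, 49.2 ± 4.52 for shMPZL3 #1 and 92.7 ± 8.61 for shMPZL3 #2 (SD, n = 3), a difference between the shRNAs of 0.91 ± 0.11 (SE; edgeR adjusted p = 3.79e-05). SESN2 and DDIT4, stress-induced inhibitors of mTOR signalling, rose with shMPZL3 #2 by 0.80 ± 0.13 and 0.53 ± 0.13 (edgeR adjusted p = 0.000568 and 0.0105) and were at 0.14 ± 0.13 and -0.07 ± 0.13 with shMPZL3 #1 (edgeR adjusted p = 0.456 and 0.712). EIF4E, the cap-binding protein, fell by 0.72 ± 0.14 with shMPZL3 #1 (edgeR adjusted p = 0.00115).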

How the data were processed

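Poly-A selected, non-stranded libraries were sequenced by the authors, aligned with HISAT2 2.0.5 to hg38 and counted with featureCounts 1.5.0-p3, per the submitters' processing notes, and raw counts per gene were deposited by the authors; the annotation and counting options are not given in the sources used here. All 58735 genes matched GENCODE release 29. OVCA433 libraries were not analysed here. From these counts, 16928 genes passed filterByExpr and were tested by two-sided edgeR 4.0.16 quasi-likelihood tests (R 4.3.3) with TMM factors of 0.983 to 1.03, as 6 knockdown against 3 control libraries and as 3 groups. CPM use the TMM-scaled totals. DESeq2 1.42.0, other scalings and filters, a replicate block, a length correction and leaving out each library were the alternatives. Tests were checked on simulated data. Figures were drawn with matplotlib 3.10.9 in Python 3.11.15. Members and lists were chosen with earlier results of these data known. Named members are the 5 highest and 5 lowest changes per comparison, paralogue pairs, role groups, extreme levels and members that failed the filter; genes named from the lists were picked as examples after their values were seen, as were the transcript lengths. Replicate numbers were checked for pairing, and the evidence was mixed. Over all genes, 3 of 9 pairs with the same number had correlated deviations over 0.1, while 8 of 9 libraries correlated best with their own number. Over the members alone, the correlations of these pairs ran from -0.172 to 0.603. The main tests left the libraries unpaired. A few named genes are not reported here, and counts over all members include them.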

Additional observations from a re-analysis of the deposited data

Results flagged for a closer look

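For 44 of the 81 ribosomal protein genes tested, the effects of the shRNAs differed in a test of the difference itself, all of them with higher values for shMPZL3 #2 than for shMPZL3 #1 (edgeR adjusted p under 0.05). Of all genes tested, 7.56% were higher and 7.56% lower in the same test. The number of members fell to 14 without replicate 1 or without replicate 3 of shMPZL3 #2. The share of all genes that were higher was 4.21% and 3.81% in these fits. Of the 44, the members among the 5 with the largest differences or in a paralogue pair included RPS15 with a log2 difference of 0.82, RPS27A with 0.70, RPS3 with 0.62, RPS29 with 0.60, RPL39 with 0.57 and RPL7 with 0.36. Others of the 44 included RPL8, RPS3A, RPL23, RPL5 and RPL11, with differences of 0.51, 0.44, 0.41, 0.39 and 0.38. MPZL3 was also higher with shMPZL3 #2, and the part of the depth of knockdown in these differences was not tested.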

How the results depend on the processing

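Of the members lower in the grouped comparison (19), DESeq2 gave 29, no filter on low counts 33, the mean of the shRNAs in the fit of 3 groups 58 and the replicate block 12. In the same order, the shares of all genes that were lower were 8.85%, 3.51%, 13.0% and 5.85%, against 6.40% in the main fit. The replicate block also gave 18 members lower with shMPZL3 #2 (9 without it), 74 with shMPZL3 #1 and 61 higher with shMPZL3 #2 than with shMPZL3 #1. The shares of all genes in these directions were 9.43%, 18.3% and 11.9%, against 5.80%, 15.3% and 7.56% without the block. Over all genes, 3 of 9 pairs of libraries with the same number had correlated deviations over 0.1, and 8 of 9 libraries correlated best with their own number. Over the members alone, the correlations of these pairs ran from -0.172 to 0.603. Leaving out 1 library gave 0 to 27 members lower in the grouped comparison, 58 to 73 with shMPZL3 #1, 0 to 14 with shMPZL3 #2 and 14 to 63 higher with shMPZL3 #2 than with shMPZL3 #1. The shares of all genes in these directions moved as well, over 0.978% to 8.25%, 9.68% to 16.1%, 2.02% to 7.89% and 3.81% to 8.67%. The medians kept their sign in all these fits, with large subunit genes at -0.38 to -0.27, -0.66 to -0.46, -0.21 to -0.14 and 0.29 to 0.49 and small subunit genes at -0.41 to -0.28, -0.65 to -0.49, -0.19 to -0.14 and 0.30 to 0.50 when 1 library was left out. No tested member was called in the opposite direction under any alternative. Without mitochondrially encoded genes in the total, the share of member counts came to 4.35% for scr control, 3.08% for shMPZL3 #1 and 3.84% for shMPZL3 #2. With lengths of coding transcripts, chosen after seeing the data, 3 of the 5 highest members by level stayed among the 5 highest. Where 1 library decided a count, the cause was not tested. Low-count members such as RPS10 and RPL36A, with 280 and 913 counts over all libraries, are less certain. The cause of their low counts was not tested.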
